A study of Mus musculus with 15 samples.

Results

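The 10 genes described here are H19, Dlk1, Meg3, Rian, Mirg, Peg3, Plagl1, Mest, Grb10 and Ndn, imprinted genes of the mouse that belong to or neighbour a co-regulated growth network. They were chosen by gene symbol, and all 10 were found among the 56953 genes of each deposited table. An imprinted gene is expressed mainly from the copy inherited from 1 parent, owing to a methylation mark set in the germ line on 1 parental copy. Many such genes are high in the embryo, act on growth through the insulin-like growth factor (IGF) pathway, and fall in most organs after birth. In skeletal muscle H19 stays on in the adult, and several of the others are known in MuSCs, the stem cells of muscle (also called satellite cells), which rebuild damaged fibres.

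RNA was sequenced in bulk from 15 libraries of wild-type (WT) mice of strain 129, described as males 10 weeks old, with 10 animals named. The 15 libraries carry 9 mouse numbers, since mice 5, 6 and 11 gave MuSCs at both times and their numbers recur in transplanted muscle. MuSC libraries came from mice 5, 6 and 11, obtained by biopsy after autologous MuSC transplantation, from an area without transplanted cells (3 libraries), and before it (3 libraries). Quadriceps femoris libraries came from 6 mice that had received their own MuSCs and from 3 mice with sham surgery. The labels of the sham libraries disagree with each other, as the titles name a sham but the treatment entry names transplantation, so every transplanted minus sham value below rests on the titles. The muscle libraries are in 2 tables made apart, 1 with transplanted 4, 14 and 94 and shams 3 and 192 (the 2-sham table) and 1 with transplanted 5, 6 and 11 and sham 12 (the 1-sham table). The labels do not say when after transplantation the samples were taken. Libraries are named below by group and mouse number.

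Library totals were 17.09 to 21.26 M (mega) estimated counts in MuSCs and 18.07 to 22.98 M in muscle. Several libraries stood apart or went against their labels. The X-inactivation RNA Xist was at 2.63 to 84.08 TPM in 14 of the 15 libraries and at 0.01 TPM in transplanted 4, while 4 Y-linked genes summed to at most 0.31 TPM in any library, which goes against the label of male. The MuSC libraries also fell into 2 sets by how their descriptions are written, with the mouse number first (after 5, before 5, before 11) or a letter first (after 6, after 11, before 6). Long genes were relatively higher in the number-first set. For this, each gene's log2 level was taken relative to its mean over the 6 MuSC libraries. The slope of this relative level on log2 gene length was 0.132 to 0.218 in the number-first set, against -0.281 to -0.114 in the letter-first set. Library after 11 had the fewest genes detected (17873) and 1.2% mitochondrial counts, against 4.44% to 6.28% in the other MuSC libraries. Library after 5 had a summed level of 8 fibroadipogenic progenitor markers of 188 TPM, mostly Smoc2 (131 TPM) and Ly6a (54.2 TPM), against 4.89 to 14.7 TPM in the other MuSC libraries. Pax7, the transcription factor that defines MuSCs, was at 11.8 to 21.6 TPM in the MuSC libraries and 0.06 to 0.26 TPM in muscle. Calcr, a receptor of resting MuSCs, was at 0.03 TPM or below in every MuSC library, and Myog, a factor of differentiating muscle cells, was at 40.0 to 254 TPM. Summed proliferation markers (7 genes) were at 526 to 797 TPM in MuSC libraries and 17.4 to 26.2 TPM in muscle. Summed markers of regenerating muscle (6 genes, with Myog) were at 447 to 1060 TPM in MuSC libraries and 6.64 to 12.2 TPM in muscle. The part of this in the MuSC levels below was not tested.

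Several of the 10 genes are also hosts of microRNAs, and their sequences are shown because a host transcript is what these libraries measured, whereas mature microRNAs were not measured. By RefSeq (GRCm38.p6), 5 of the 10 contain microRNA hairpins. H19 has 1 hairpin, Meg3 has 1, Rian has 3, Mirg has 10 and Mest has 1. Meg3 also contains the mature miR-1906, for which no hairpin was found within it. Bases 2 to 8, the seed that pairs with targets, are in capitals, and all are written 5′ to 3′. The pair from H19, the pair from Mest, 1 product of Rian and the 2 products of Mirg with a common seed were:
mmu-miR-675-5p (H19): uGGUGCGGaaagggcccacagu
mmu-miR-675-3p (H19): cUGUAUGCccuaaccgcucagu
mmu-miR-335-5p (Mest): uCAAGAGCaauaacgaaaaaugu
mmu-miR-335-3p (Mest): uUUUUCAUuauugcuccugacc
mmu-miR-370-3p (Rian): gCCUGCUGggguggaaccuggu
mmu-miR-453 (Mirg): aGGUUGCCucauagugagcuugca
mmu-miR-496a-5p (Mirg): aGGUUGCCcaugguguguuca

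Among all the mature microRNAs of the 5 hosts, only miR-453 and miR-496a-5p shared a seed, GGUUGCC. Promoter windows of 300 bases (250 before and 50 from the start site) were held for 9 of the 10 genes, 13 windows in all, and were searched on both strands. The letters searched were GGGGCCCC, which lies in the binding motif of the Plagl1 protein, TGACGTCA, the full cAMP response element, and GCCATNTT, the core of the YY1 motif. Only the Peg3 window and 1 Meg3 window held any of them. The Peg3 window had GGGGCCCC starting 201 bases and TGACGTCA starting 178 bases before the start site, without overlap. TGACGTCA began 57 bases before the start site of Meg3. Over 32817 windows of this length in the genome, 1.07% held GGGGCCCC, 1.79% held TGACGTCA and 6.04% held GCCATNTT. The 2 windows are given with the motifs in capitals, and binding was not measured:
Peg3 (GRCm38.p6, chr7:6730370-6730669, minus strand): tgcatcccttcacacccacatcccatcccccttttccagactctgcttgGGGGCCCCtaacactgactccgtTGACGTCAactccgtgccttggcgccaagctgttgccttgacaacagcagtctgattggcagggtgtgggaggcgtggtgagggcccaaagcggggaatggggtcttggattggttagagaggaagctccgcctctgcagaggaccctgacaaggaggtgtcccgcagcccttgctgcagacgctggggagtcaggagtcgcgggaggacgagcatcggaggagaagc
Meg3 (GRCm38.p6, chr12:109540746-109541045, plus strand): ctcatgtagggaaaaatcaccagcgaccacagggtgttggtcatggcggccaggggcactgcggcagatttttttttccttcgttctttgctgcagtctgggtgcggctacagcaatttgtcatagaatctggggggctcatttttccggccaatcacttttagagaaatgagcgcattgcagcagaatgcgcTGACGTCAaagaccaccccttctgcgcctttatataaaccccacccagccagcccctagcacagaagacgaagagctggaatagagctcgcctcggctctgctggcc

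The first question was at what level each gene stood in MuSCs and in whole muscle. Levels are in TPM, which scales for gene length, so that genes can be set beside each other. The MuSC and muscle tables were made apart, so these levels are side by side with no test. H19, a maternally expressed long non-coding RNA of chromosome 7, stood far above the other 9 genes in every library. In MuSCs it had 8618 TPM in after 5, 20932 TPM in after 6 and 6604 TPM in after 11, against 13310, 18659 and 9337 TPM in before 5, 6 and 11. It ranked 2 to 14 among all genes in the MuSC libraries by TPM. Its share of all counts was lowest in after 11, at 1.339% (95% Wilson interval 1.334 to 1.344%), and highest in after 6, at 4.178% (4.169 to 4.187%), with intervals that cover counting error only. In muscle H19 was at 276 to 1018 TPM, with a median of 626 TPM in transplanted and 450 TPM in sham libraries, and ranked 95 to 288. The median over MuSC libraries was 19.3 times that over muscle libraries, and the ranges did not overlap. Of the 10 genes, 5 had no overlap between the 6 MuSC and 9 muscle libraries (H19, Peg3, Plagl1, Grb10 and Meg3), 5 of the 9 tested in either comparison below, as did 54.6% of the 15685 genes tested there.

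**Figure D1:**
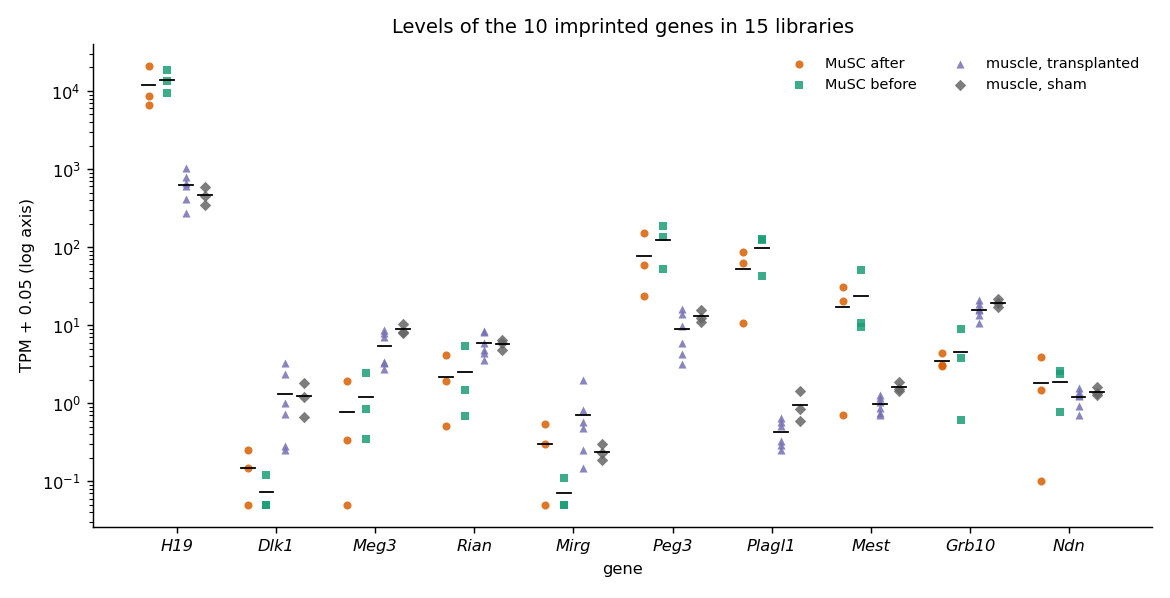
TPM plus 0.05 on a log axis for the 10 genes, with 1 point per library and a black bar at each group mean, for MuSCs after (3), MuSCs before (3), transplanted muscle (6) and sham muscle (3). H19 lies above all others in every group, Peg3 and Plagl1 are higher in MuSCs than in muscle, and Grb10 and Meg3 are higher in muscle.

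The other genes divided by where they were high. Peg3, a paternally expressed zinc-finger protein, followed H19 in MuSCs by group mean. It had 151, 59.7 and 23.7 TPM in after 5, 6 and 11, against 135, 53.0 and 184 TPM in before 5, 6 and 11. In muscle it was at 3.18 to 15.9 TPM, and the MuSC median was 8.88 times the muscle median with no overlap. Plagl1 (also called Zac1), a zinc-finger transcription factor that in mouse activates other imprinted genes, was at 10.6 to 126 TPM in MuSCs and 0.20 to 1.40 TPM in muscle. Of the 10 genes it had the widest gap between MuSCs and muscle with no overlap, 142 times by medians of 73.7 and 0.52 TPM. Mest, a paternally expressed enzyme-like membrane protein, had a median of 15.6 TPM in MuSCs and 1.11 TPM in muscle, but after 11, at 0.65 TPM, equalled the lowest muscle library. Ndn, a paternally expressed MAGE-family protein, did not separate MuSCs (0.05 to 3.88 TPM) from muscle (0.65 to 1.55 TPM).

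Grb10 and Meg3 were higher in muscle, and the other 3 transcripts of chromosome 12 were low or overlapped. Grb10, an adaptor protein that restrains insulin and IGF receptors, was at 0.56 to 9.02 TPM in MuSCs and 10.8 to 21.5 TPM in muscle, with no overlap and a MuSC median 0.20 times that of muscle. Dlk1, Meg3, Rian and Mirg lie in this order on 1 strand of chromosome 12, within 297 kb. Meg3, a maternally expressed long non-coding RNA, was at 0 to 2.40 TPM in MuSCs and 2.67 to 10.4 TPM in muscle, with no overlap. Rian, its neighbour and host of small nucleolar RNAs, had medians of 1.66 and 5.87 TPM in MuSCs and muscle with overlapping ranges. Dlk1, the paternally expressed membrane protein of the locus and a ligand-like member of the Notch family, was nearly absent from MuSCs. It gave 3 counts over the 3 after libraries and 1 count over the 3 before libraries, against 3 to 36 counts per muscle library. Mirg, the microRNA host at the end of the cluster, gave 5 counts after and 1 before in MuSCs and 2 to 11 per muscle library. These 2 genes are at or under a floor of 3 counts in every MuSC library and no fold is given. In whole tissue, fewer cells of a type and less RNA per cell cannot be told apart.

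Within a group, only some of these levels could be ranked. In MuSCs after, only H19 was separated from the next gene, and the other 9 each overlapped a gene next to them in order. Peg3, at 23.7 TPM or more, and Plagl1, at 10.6 TPM or more, still lay above Grb10, at 4.30 TPM or less. In MuSCs before, the order was H19, then Peg3, Plagl1 and Mest, then Grb10, Rian, Ndn and Meg3, then Dlk1 and Mirg. Plagl1 overlapped both Peg3 and Mest, but Peg3, at 53.0 TPM or more, lay above Mest, at 50.4 TPM or less. In transplanted muscle H19 was followed by Grb10, Peg3, Rian and Meg3, each of these overlapping the next. Grb10, at 10.8 to 20.8 TPM, did not overlap Rian (3.53 to 8.47 TPM) or Meg3 (2.67 to 8.56 TPM). In sham muscle H19, Grb10, Peg3, Meg3 and Rian followed each other in this order with no overlap between neighbours.

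The study then compared MuSCs taken after transplantation with MuSCs taken before it. None of the 10 genes passed the test. Of the 10, 8 had enough counts to test, Dlk1 and Mirg being too low, and 0 of the 8 had an adjusted p under 0.05 by edgeR's quasi-likelihood test with Benjamini-Hochberg adjustment. Over all 13512 genes tested the share called was also 0%, with a smallest adjusted p of 0.873, 305 genes at an unadjusted p under 0.05, and 16 genes called by DESeq2, none of them among the 10. The 8 tested genes had 2 positive and 6 negative log2 differences (after minus before), with a median of -0.10, against 0.02 over all genes tested. In none of the 8 did the after and before libraries separate, where 6.33% of all genes did. A p above the threshold does not show that the levels were equal, since the standard errors below ran from 0.55 to 1.20 on the log2 scale.

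Values from here are CPM, the counts of a gene scaled by the TMM method to a common library total, with no correction for gene length. H19 was at 12576, 46604 and 15067 CPM in after 5, 6 and 11, against 19737, 40625 and 14259 CPM in before 5, 6 and 11. Mouse 6 was high at both times, and the groups overlapped throughout. Its means were 24749 ± 18968 CPM after and 24873 ± 13913 CPM before (SD, n = 3 each), a log2 difference of -0.01 ± 0.67 (SE, edgeR adjusted p = 0.997). Igf2, the growth factor gene beside H19 and reciprocally imprinted with it, was at 757, 608 and 91.0 TPM in after 5, 6 and 11, against 958, 889 and 446 TPM in before 5, 6 and 11. Its log2 difference was -0.58 ± 0.69 (edgeR adjusted p = 0.873).

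Peg3 was at 899, 550 and 225 CPM in after 5, 6 and 11, against 823, 475 and 1138 CPM in before 5, 6 and 11. Only in mouse 11 was it lower after, and there by 2.34 on the log2 scale, whereas mice 5 and 6 were higher after by 0.13 and 0.21. The log2 difference over the groups was -0.54 ± 0.55 (edgeR adjusted p = 0.873). Plagl1 had 225, 201 and 35.8 CPM in after 5, 6 and 11, against 280, 127 and 291 CPM in before 5, 6 and 11, a log2 difference of -0.60 ± 0.67 (edgeR adjusted p = 0.873). Here too after 11 was far below the other 5 libraries, which lay between 127 and 291 CPM. Without after 11 the log2 difference was -0.16 for Peg3 and -0.13 for Plagl1.

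Mest showed the widest scatter of the well-expressed genes. It had 32.4, 77.7 and 1.58 CPM in after 5, 6 and 11, against 84.3, 22.7 and 18.6 CPM in before 5, 6 and 11. Mouse 5 was lower after by 1.37 on the log2 scale, mouse 6 was higher after by 1.75 and mouse 11 was lower after by 3.20. The group difference was -0.17 ± 1.14 (edgeR adjusted p = 0.966). Grb10 was nearly constant after transplantation, at 14.7, 16.1 and 16.0 CPM in mice 5, 6 and 11, against 31.5, 2.81 and 13.5 CPM before. Its group means of 15.6 ± 0.79 CPM after and 15.9 ± 14.5 CPM before (SD, n = 3 each) were close, and the spread before was wide.

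The low genes varied no less. Ndn was at 3.49, 14.6 and 0.18 CPM in after 5, 6 and 11, against 1.83, 8.50 and 6.47 CPM in before 5, 6 and 11. Meg3 gave 20, 17 and 0 counts in after 5, 6 and 11, against 62, 6 and 22 counts in before 5, 6 and 11. The count of 0 in after 11 allows up to 3 counts (counting error only), or 0.18 CPM, the same as Ndn in that library. Rian gave 51, 115 and 6 counts in after 5, 6 and 11, against 137, 15 and 33 counts in before 5, 6 and 11. None of these 3 genes had separate groups, and their log2 differences were 0.13 ± 1.20 for Ndn, -1.10 ± 1.17 for Meg3 and 0.10 ± 1.03 for Rian. That of Meg3 was -0.23 without before 5 and -0.53 without after 11.

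**Figure D2:**
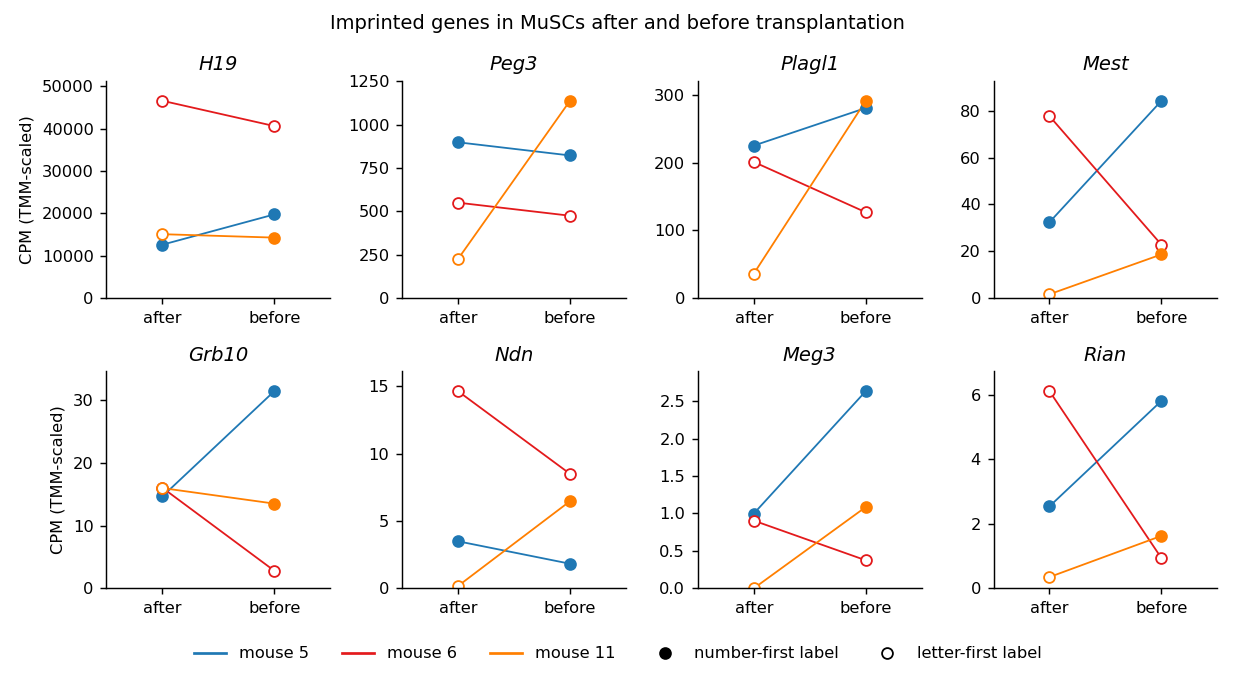
TMM-scaled CPM of the 8 tested genes in MuSCs after and before transplantation, 1 line per mouse (5, 6, 11), with filled points for number-first and open points for letter-first library labels and each axis starting at 0. Lines of the 3 mice cross or run in opposite directions in every panel, and mouse 11 after is at the bottom of 6 of the 8 panels.

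No tested gene moved the same way in all 3 mice (0 of 8), a pattern that 21.1% of all genes tested had. Library after 11 was the lowest of the 6 MuSC libraries in 6 of the 8 genes (Peg3, Plagl1, Mest, Ndn, Meg3 and Rian), where 36.5% of all genes had their lowest value there. The same library had the lowest summed level of 8 mature myofibre markers, 535 TPM against 2292 to 5156 TPM in the other 5, and the fewest genes detected. Its slope on log2 gene length was also the lowest, at -0.281 against -0.138 to 0.218 in the other 5. The part of that library's composition or length trend in the low values was not tested. With each library's trend on gene length removed, the group log2 difference was -0.15 for Peg3, -0.38 for Plagl1 and -0.62 for Meg3. It was then -0.07 for Mest, 0.175 for Ndn and 0.83 for Rian.

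The form of the label separated some of these genes, as it did many of all genes tested. Meg3, Peg3 and Plagl1 (3 of 8) had no overlap between the number-first and letter-first sets, against 56.8% of all genes tested. Peg3 averaged 953 ± 165 CPM in the number-first and 416 ± 170 CPM in the letter-first libraries (SD, n = 3 each). Plagl1 averaged 266 ± 35.6 CPM in the number-first and 121 ± 82.7 CPM in the letter-first libraries. In the fit with both label form and group, where the test of the label form itself was added after the data were seen, the number-first minus letter-first difference was 1.13 ± 0.37 for Peg3 (edgeR adjusted p = 0.0785) and -1.28 ± 0.47 for H19 (edgeR adjusted p = 0.094). No gene of the 13512 passed the threshold for this edgeR term (0%), with 5562 genes at an unadjusted p under 0.05. With each library's trend on gene length removed, the label form difference of Peg3, whose exons sum to 13324 bases, was 0.08 ± 0.29, and that of H19, at 2460 bases, was -1.19 ± 0.46. So the H19 difference was of similar size with and without the length correction, and that of Peg3 was not. The label form crosses the groups unevenly, with 1 number-first library after and 2 before. Mouse 5 had only number-first and mouse 6 only letter-first libraries, so for these mice label form and mouse cannot be told apart. H19 was at 46604 and 40625 CPM in the letter-first libraries of mouse 6. In after 11, also letter-first, H19 was at 15067 CPM, within the number-first range of 12576 to 19737 CPM.

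**Figure D3:**
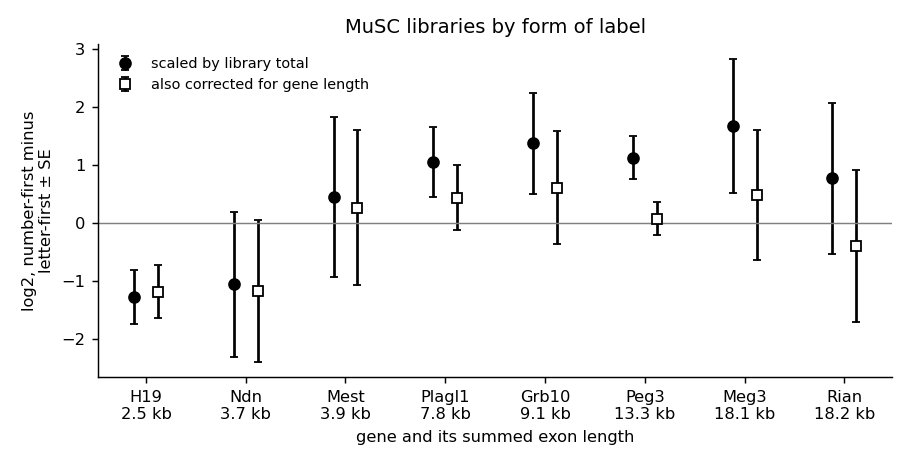
Log2 difference between number-first and letter-first MuSC libraries with its SE for the 8 tested genes, ordered left to right by summed exon length in kb, scaled by library total (filled circles) and also corrected for gene length (open squares). Peg3 is at 1.13 without and 0.08 with the length correction, and H19 at -1.28 without and -1.19 with it.

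The second comparison set quadriceps of transplanted mice against that of sham mice, with the deposited table as a term. None of the 10 genes passed this test either. Of the 10, 9 had enough counts (Mirg did not), and 0 of the 9 had an adjusted p under 0.05 by edgeR's quasi-likelihood test with Benjamini-Hochberg adjustment. The share over all 14375 genes tested was 0%, with a smallest adjusted p of 0.423, 1018 genes at an unadjusted p under 0.05, and 6 genes called by DESeq2, none of them among the 10. In log2 difference (transplanted minus sham), 2 of the 9 were positive and 7 negative, with a median of -0.16, against -0.001 over all genes tested. In CPM the 6 transplanted and 3 sham libraries overlapped for all 9 genes, where 2.11% of all genes tested did not overlap.

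Mest had the largest negative difference of the 9 relative to its error. Its levels in the 2-sham table were 0.88, 1.07 and 0.91 CPM in transplanted 4, 14 and 94, against 1.88 and 1.64 CPM in shams 3 and 192. In the 1-sham table they were 1.45, 1.75 and 1.03 CPM in transplanted 5, 6 and 11, against 2.06 CPM in sham 12. Within each table every transplanted library was below every sham, which held for 1 of the 9 genes and for 2.8% of all genes tested. Transplanted muscle averaged 1.18 ± 0.34 CPM (SD, n = 6) and sham muscle 1.86 ± 0.21 CPM (SD, n = 3), a log2 difference of -0.74 ± 0.26 (edgeR adjusted p = 0.686). These levels rest on 17 to 43 counts per library.

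Plagl1 and Meg3 were next. Plagl1 was at 1.12, 2.54 and 2.10 CPM in transplanted 4, 14 and 94, against 3.48 and 2.44 CPM in shams 3 and 192, and at 1.35, 1.57 and 1.03 CPM in transplanted 5, 6 and 11, against 2.06 CPM in sham 12. Only transplanted 14 was above any sham of its own table. The log2 difference was -0.63 ± 0.28 (edgeR adjusted p = 0.696), on 22 to 65 counts per library. Meg3 was at 10.2, 9.91 and 9.89 CPM in transplanted 4, 14 and 94, against 9.86 and 10.5 CPM in shams 3 and 192, so that in this table the groups coincided. In the 1-sham table Meg3 was at 4.54, 4.24 and 3.21 CPM in transplanted 5, 6 and 11, against 8.35 CPM in sham 12. Its log2 difference over both tables was -0.43 ± 0.19 (edgeR adjusted p = 0.700).

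H19 differed in sign between the tables. It was at 509, 1030 and 671 CPM in transplanted 4, 14 and 94, against 1048 and 738 CPM in shams 3 and 192. In the 1-sham table it was at 1577, 1243 and 2141 CPM in transplanted 5, 6 and 11, against 534 CPM in sham 12. Each of transplanted 5, 6 and 11 exceeded sham 12, whereas the transplanted libraries of the 2-sham table lay among or below their shams. The log2 difference was 0.33 ± 0.38 over both tables (edgeR adjusted p = 0.869), -0.28 ± 0.28 in the 2-sham table alone (edgeR adjusted p = 1) and 1.64 ± 0.31 in the 1-sham table alone (edgeR adjusted p = 0.102). In the 1-sham table the SE and p rest on the spread of the 3 transplanted libraries, sham 12 being assumed to vary like them, and in the 2-sham table the difference was within its error of 0. Peg3 was negative in both tables, by -0.09 ± 0.22 in the 2-sham table and -0.87 ± 0.25 in the 1-sham table. It had 110, 64.6 and 85.1 CPM in transplanted 4, 14 and 94, against 106 and 77.1 CPM in shams 3 and 192, and 33.4, 43.7 and 25.2 CPM in transplanted 5, 6 and 11, against 62.6 CPM in sham 12.

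**Figure D4:**
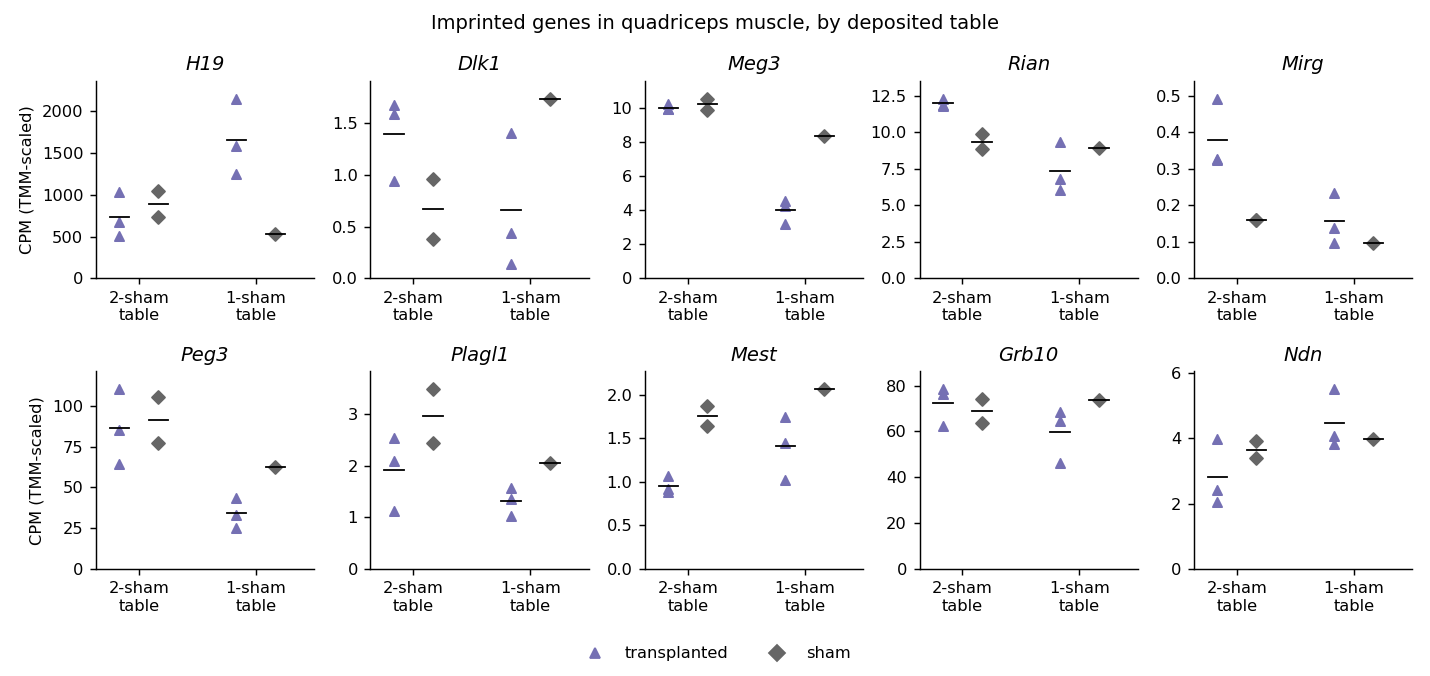
TMM-scaled CPM of the 10 genes in quadriceps muscle, transplanted (triangles) left of sham (diamonds) within each deposited table, with a bar at each mean and axes starting at 0. H19 is above sham 12 and Meg3 below it in all 3 transplanted libraries of the 1-sham table, while in the 2-sham table the groups of both genes overlap, and Mest is below every sham of its own table in both.

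The difference between the 2 tables' effects was itself tested, a term added after the data were seen. It was 1.91 ± 0.50 for H19 (unadjusted p = 0.00294) and -1.04 ± 0.27 for Meg3 (unadjusted p = 0.00269), in log2 units of the 1-sham minus the 2-sham effect. After adjustment over all 14375 genes both had an edgeR adjusted p of 0.375, and 0 genes passed (0%), with 1342 at an unadjusted p under 0.05. For Dlk1 it was -2.44 ± 1.12 (edgeR adjusted p = 0.538). Dlk1 had 34, 21 and 31 counts in transplanted 4, 14 and 94, against 7 and 18 counts in shams 3 and 192, and 9, 3 and 30 counts in transplanted 5, 6 and 11, against 36 counts in sham 12. The difference between the tables' effects was also fitted with each library's trend on gene length removed. It was then 2.0 ± 0.47 for H19, -0.69 ± 0.27 for Meg3 and -2.2 ± 1.1 for Dlk1.

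The 1-sham table rests on a single sham, and that library differed from the others in more than these genes. Sham 12 lay outside the range of its 3 transplanted libraries in 7 of the 9 tested genes, as it did in 62.6% of all genes tested. Its summed level of 7 adipocyte markers was 614 TPM, against 30.6 to 198 TPM in the transplanted libraries and 43.8 and 162 TPM in the other 2 shams. Its summed level of 8 fibroadipogenic progenitor markers was 275 TPM, against 144 to 177 TPM in the transplanted libraries and 155 and 170 TPM in the other 2 shams. Mitochondrial genes took 9.29% of its counts, against 12.22% to 15.96% in the other muscle libraries. The part of these in the differences was not tested. Leaving sham 12 out gave a log2 difference of -0.28 for H19, -0.03 for Meg3 and -0.87 for Mest. With all 9 libraries and the trend on gene length removed, it was 0.38 for H19, -0.265 for Meg3, -0.245 for Peg3 and -0.65 for Mest.

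Grb10, Ndn and Rian had small differences in muscle. Grb10 averaged 66.1 ± 11.6 CPM in transplanted (SD, n = 6) and 70.5 ± 5.83 CPM in sham muscle (SD, n = 3), a log2 difference of -0.08 ± 0.14 (edgeR adjusted p = 0.916). Ndn differed by -0.16 ± 0.24 (edgeR adjusted p = 0.896). Rian had 11.9, 12.3 and 11.8 CPM in transplanted 4, 14 and 94, against 8.84 and 9.86 CPM in shams 3 and 192. In the 1-sham table Rian was at 9.32, 6.77 and 6.06 CPM in transplanted 5, 6 and 11, against 8.93 CPM in sham 12. Sham 12 thus lay within the transplanted range for Rian and above it for its neighbour Meg3. Over both tables Rian differed by 0.11 ± 0.16 (edgeR adjusted p = 0.901).

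**Figure D5:**
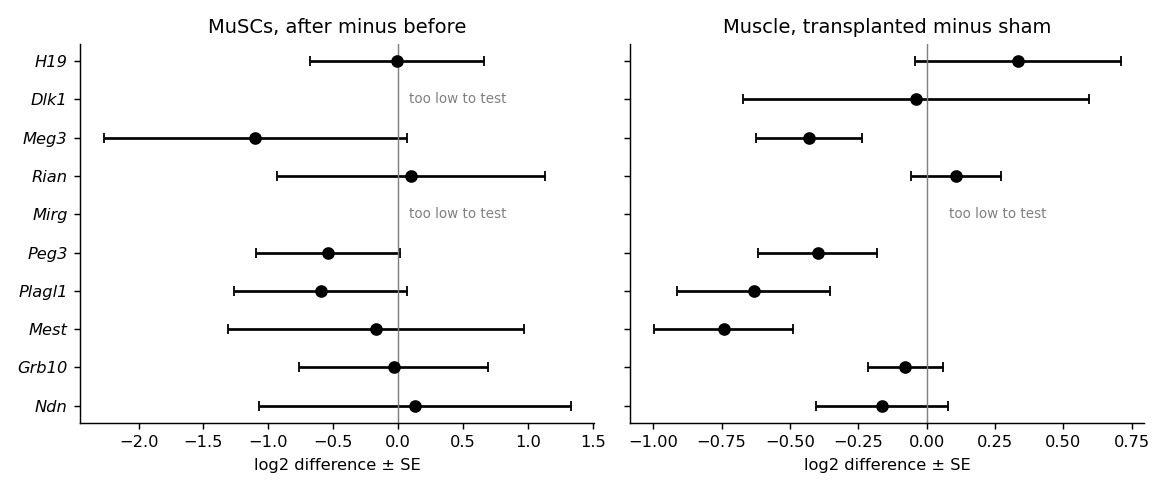
Log2 difference with its SE for each gene, MuSCs after minus before in the left panel and muscle, transplanted minus sham, in the right panel, with the genes too low to test marked. Errors are wider in MuSCs than in muscle for each of the 8 genes tested in both, and Mest, Plagl1 and Meg3 lie lowest in muscle at -0.74, -0.63 and -0.43, none past the threshold.

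Other genes of the same pathways were read in the same fits, and no gene of any list below passed the threshold in either comparison. Of 8 further genes of the imprinted growth network, 6 were tested in MuSCs (2 positive, 4 negative, median -0.29), from Gatm, a creatine synthesis enzyme, at 0.43 ± 0.86 to Slc38a4, an amino acid transporter, at -3.34 ± 0.83 (edgeR adjusted p = 0.873). Slc38a4 was at 0.01 to 0.16 TPM after and 0.18 to 1.19 TPM before. All 8 were tested in muscle (2 positive, 6 negative, median -0.08), from Gnas, the stimulatory G protein subunit, at 0.07 ± 0.10 to Dcn, the matrix proteoglycan decorin, at -0.32 ± 0.10 (edgeR adjusted p = 0.686). Dcn is also a fibroblast gene, and it was listed at 0 in all 6 MuSC libraries. Igf2 was at 91.0 to 958 TPM in MuSCs and 6.50 to 12.4 TPM in muscle, so it was higher in MuSCs along with H19.

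Of 52 other imprinted genes, which include several of the previous list, 33 were tested in MuSCs (12 positive, 21 negative, median -0.24) and 37 in muscle (18 positive, 19 negative, median 0.00). Nnat, a paternally expressed small membrane protein, had the largest positive difference in MuSCs at 2.66 ± 1.20 (edgeR adjusted p = 0.873) and the largest negative one in muscle at -1.53 ± 0.55 (edgeR adjusted p = 0.686). Slc38a4 was again the most negative in MuSCs, and Snurf, of the Ndn region, the most positive in muscle at 1.55 ± 0.90. Of 10 IGF ligands, receptors and RNA-binding proteins, all 10 were tested in MuSCs (3 positive, 7 negative, median -0.19), from Igf2bp1 at 1.64 ± 0.97 to the receptor substrate Irs1 at -0.62 ± 0.45. In muscle 9 were tested (4 positive, 5 negative, median 0.00), from Igf2bp2 at 0.30 ± 0.61 to Igf2bp3 at -0.96 ± 0.67. Of 11 genes of imprint maintenance and DNA methylation, 10 were tested in MuSCs (4 positive, 6 negative, median -0.12), from Uhrf1 at 0.91 ± 0.42 to Tet2 at -0.97 ± 0.95. In muscle 9 were tested (4 positive, 5 negative, median -0.06), from Dnmt3b at 0.91 ± 0.38 to Zfp57, which guards imprints in the embryo, at -0.96 ± 0.47.

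Neighbouring genes at each locus gave no call in either comparison. Beside H19 all 5 were tested, with 1 positive and 4 negative in MuSCs (median -0.40) and 3 positive and 2 negative in muscle (median 0.06). In MuSCs they ran from Mrpl23 at 0.53 ± 0.53 to Nctc1 at -0.80 ± 0.97, and in muscle from Tnnt3 at 0.15 ± 0.13 to Lsp1 at -0.20 ± 0.15. Beside Peg3, Usp29 and Zim1 were tested and were both negative in both comparisons, at -0.44 ± 0.38 and -0.65 ± 0.94 in MuSCs and -0.26 ± 0.23 and -0.18 ± 0.15 in muscle. Beside the chromosome 12 genes only Wdr25 was tested, at 0.42 ± 0.54 in MuSCs and 0.15 ± 0.25 in muscle.

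Around Ndn, 5 neighbours were tested in MuSCs (1 positive, 4 negative, median -0.24) and 4 in muscle (3 positive, 1 negative, median 0.11). They ran in MuSCs from Atp10a at 1.43 ± 0.94 to Ube3a at -0.55 ± 0.84, and in muscle from Snurf, given above, to Atp10a at -0.32 ± 0.29. Around Mest 3 were tested in MuSCs, from Cpa4 at 1.73 ± 0.90 to Copg2 at -0.35 ± 0.33, and 2 in muscle, Copg2 at -0.10 ± 0.13 and Cep41 at -0.89 ± 0.34. Around Grb10, Ddc and Cobl were at -0.67 ± 0.43 and -0.79 ± 0.47 in MuSCs and -0.22 ± 0.47 and 0.08 ± 0.09 in muscle. Around Plagl1 all 3 were tested in each, from Sf3b5 at 0.84 ± 0.55 to Phactr2 at -0.33 ± 0.48 in MuSCs and from Sf3b5 at 0.10 ± 0.11 to Phactr2 at -0.04 ± 0.09 in muscle.

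The genes whose log2 CPM ran most closely with that of H19 over the 9 muscle libraries, centred within tables, were Nmrk2, Smtnl1 and Ckmt2 (Pearson r of 0.994, 0.993 and 0.992). For Dlk1 they were Igf1r, Zfhx4 and Prex1 (0.962, 0.933 and 0.930), for Meg3 Ppl, Rab8b and Myof (0.966, 0.945 and 0.942), and for Mest Rmdn3, Sox4 and Ampd2 (0.970, 0.952 and 0.940). Over the 6 MuSC libraries they were Ube2l3, Lipo2 and Lipt2 for H19 (0.999, 0.979 and 0.977), Cbfa2t2, Soga3 and Runx1 for Meg3 (0.994, 0.992 and 0.989), and Sorbs3, Tgfbrap1 and Gprc5c for Mest (0.981, 0.980 and 0.975). These are the highest of the correlations with all tested genes, over few libraries that share depth and composition differences, and they describe these libraries alone.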

How the data were processed

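Trizol RNA went into NEBNext Ultra libraries, per the labels' protocols. The builds were GRCm38 and mm10, per the submitters' processing notes, and the aligner and counter were not given in the sources used here. Per the file headers the authors deposited estimated counts, TPM and FPKM (the last not used here) for 56953 genes in 3 tables. Up to 8.8% of a library's counts were not whole, and the deposited estimated counts were rounded before testing. The deposited TPM values were used as given. Of 52029 gene identifiers shared with GENCODE M21 (GRCm38), 1409 had the same coordinates, so no coordinates of the files are printed, and M21 served only for exon length. A further 3 columns of values matched no sample and were not used.

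Groups came from the labels, shams from their titles against their treatment entry. Differences were tested with edgeR 4.0.16 in R 4.3.3 (quasi-likelihood, filterByExpr with a minimum count of 10, TMM, Benjamini-Hochberg over all genes tested, 2-sided, threshold 0.05), MuSCs without covariates and muscle with the table as a term. Libraries of 1 group bear different mouse numbers and were taken as separate animals. Replicates differed beyond sampling noise, with chi-square values of 16.73 to 462.69 per degree of freedom. The labels call the cells autologous, so MuSC libraries with 1 mouse number come from 1 animal, but the MuSC test was unpaired, with the mouse as a block only as an alternative. Deviations from group means correlated within mice 5, 6 and 11 at 0.31, 0.39 and -0.45, and between mice at -0.72 to 0.60. Alternatives were DESeq2 1.42.0, its size factors in edgeR, no filter, leaving out each library, the mouse as a block, label form, each table alone, no table term and length-corrected offsets, the last added after seeing the data. The named genes are the 10 members, the extremes of each list, and 3 most similar genes for 4 members. The members and lists were chosen with earlier results of these data known.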

Additional observations from a re-analysis of the deposited data

How the results depend on the processing

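No value of the 10 genes passed the threshold under any alternative run (112 values in MuSCs, smallest adjusted p 0.213; 144 in muscle, smallest adjusted p 0.102), while 24 and 14 of them changed sign. Counts of genes called differed from 0 in MuSCs with DESeq2 (16) and in number-first libraries alone (43). In muscle they did so with DESeq2 (6), with no filter (12), in the 2-sham table alone (1) and in the 1-sham table alone (41). Leaving out 1 muscle library gave 0 to 4 genes called, with 2 without transplanted 94 and 4 without sham 192, and leaving out 1 MuSC library gave 0. The mouse number as a replicate block called 0 genes (214 at an unadjusted p under 0.05, edgeR) and turned Rian to -0.34, Grb10 to 0.49 and Ndn to -0.51, and moved Mest to -1.09 with its sign kept. With label form as a term Mest was 0.063, Grb10 0.88 and Ndn -0.22. In number-first libraries alone Rian was -0.54 and Ndn -0.23. In letter-first libraries alone Meg3 was 0.27, Mest 0.79, Grb10 2.50 and Ndn -0.21. Length-corrected offsets, added after seeing the data, gave Grb10 0.51 in MuSCs, and Dlk1 0.089 and Grb10 0.057 in muscle. In the 2-sham table alone H19 was -0.28, Dlk1 1.05 and Grb10 0.065. In the 1-sham table alone Rian was -0.27 and Ndn 0.17. Leaving out 1 library, the log2 difference in MuSCs ranged from -0.85 to 0.55 for H19, -1.59 to -0.23 for Meg3, -0.95 to 1.20 for Rian, -1.31 to 0.83 for Mest, -0.53 to 0.91 for Grb10 and -1.60 to 0.70 for Ndn. In muscle it ranged from -0.28 to 0.70 for H19, -0.53 to 1.06 for Dlk1, -0.003 to 0.36 for Rian and -0.17 to 0.07 for Grb10. Peg3 and Plagl1 in MuSCs, and Meg3, Peg3, Plagl1 and Mest in muscle, kept a negative sign under every alternative run, but several came near 0. In MuSCs Peg3 was -0.15 with length-corrected offsets, -0.21 with label form as a term and -0.11 in number-first libraries alone. Plagl1 was -0.11 in letter-first libraries alone. In muscle Meg3 was -0.03 and Peg3 -0.09 in the 2-sham table alone, while Plagl1 and Mest came no nearer 0 than -0.48 and -0.55. The cause of the sign changes was not tested. With 3 libraries a group in MuSCs and 1 sham in the 1-sham table, single libraries set several of these values, and Mest, Plagl1 and Dlk1 in muscle rest on counts of 65 or fewer.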
